A study of Mus musculus with 12 samples.

Results

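Primary granule and promyelocyte genes are the subject here: Mpo, Elane, Prtn3, Ctsg, Prss57, Ms4a3, Fcnb, Fcna and Ctsc, 9 genes listed by name. The list was made with earlier results of these data known, so counts of calls among its members are descriptions. All probe sets with only that gene's symbol in the platform annotation were taken. They came to 10 probe sets for 8 of the 9 genes, out of 18193 genes with a probe set in all. No probe set carried the symbol of Prss57, a further serine protease of these granules, so it has no value here. All 8 genes were bright enough to be among the 12572 genes tested. Mpo, Elane, Prtn3, Ctsg, Ms4a3, Fcnb and Fcna had 1 probe set each, and Ctsc had 3.

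RNA was measured on 12 Affymetrix arrays of mouse leukemia cells that carried the fusion MLL-AF9 or the fusion MLL-NRIP3. In each of these 2 models, 3 control arrays with wild-type Rictor and 3 Rictor-deleted (RictorΔ/Δ) arrays were made. Rictor is an obligate subunit of the kinase complex mTORC2, and by the series text the question was what its loss changes in MLL-AF9 leukemia, with MLL-NRIP3 examined after it. All 4 groups hold bone marrow cells labelled K+G–, an abbreviation the labels do not spell out, sorted from recipients of a first bone marrow transplant when more than 50% of their blood leukocytes were CD45.2+. The labels also give peripheral blood as the host tissue, and they name neither the animals' age, the means of the deletion, nor separate mice for the 3 arrays of a group. The p-values therefore measure only the spread between these arrays, which may be technical.

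Neutrophils carry several kinds of granule, filled in the order in which the cell makes the proteins. Primary, or azurophil, granules are filled at the promyelocyte stage with myeloperoxidase and the serine proteases elastase, proteinase 3 and cathepsin G, and secondary and tertiary granules are filled later with proteins such as lactoferrin. Leukemias driven by MLL fusions are often arrested near the granulocyte-monocyte progenitor stage, in which the primary granule genes are already transcribed.

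Promoter sequences of 5 members are shown as a description, and no result below was tested against them. Elane and Prtn3 were taken because they are next to each other in the genome and their probe sets are both very bright. Ms4a3, Fcnb and Fcna were taken because they differed in response between the leukemias. Each line holds the 150 bases before the start of the gene in RefSeq, build GRCm38.p6, 5′ to 3′ on the strand of the gene. Capitals mark GGAAGT, a core bound by Ets factors such as PU.1, and AACGG, a core bound by Myb.
Elane, chr10:79886162-79886311, plus strand: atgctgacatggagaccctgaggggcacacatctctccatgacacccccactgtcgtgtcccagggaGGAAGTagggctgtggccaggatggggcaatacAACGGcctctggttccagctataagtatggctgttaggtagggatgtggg
Prtn3, chr10:79879517-79879666, plus strand: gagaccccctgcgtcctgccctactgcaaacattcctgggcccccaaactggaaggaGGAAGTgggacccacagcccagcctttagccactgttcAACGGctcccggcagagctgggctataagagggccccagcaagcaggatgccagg
Ms4a3, chr19:11640852-11641001, minus strand: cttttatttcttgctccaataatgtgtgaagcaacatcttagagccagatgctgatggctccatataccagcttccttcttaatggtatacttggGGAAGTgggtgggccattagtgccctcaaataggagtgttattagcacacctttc
Fcnb, chr2:28084879-28085028, minus strand: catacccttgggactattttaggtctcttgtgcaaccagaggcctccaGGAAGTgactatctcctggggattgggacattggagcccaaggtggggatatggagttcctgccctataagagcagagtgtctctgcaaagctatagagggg
Fcna, chr2:25627975-25628124, minus strand: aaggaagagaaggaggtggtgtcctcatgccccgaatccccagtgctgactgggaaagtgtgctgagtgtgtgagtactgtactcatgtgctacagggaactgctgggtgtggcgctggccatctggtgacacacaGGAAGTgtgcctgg

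In windows of 250 bases before the start, searched on both strands, GGAAGT was found for all 8 members with a promoter in the table and in 19.7% of 32851 RefSeq promoters. AACGG was found for 2 members, Elane and Prtn3, and in 14.5% of all promoters. The 2 genes carry the cores in the same order, with GGAAGT at 78 to 83 and AACGG at 46 to 50 bases before the start in Elane, and at 88 to 93 and 51 to 55 in Prtn3. A TATAA on the gene's own strand stood 27 to 31 bases before the start in Elane, 28 to 32 in Prtn3 and 33 to 37 in Fcnb, and in 5255 of the 32851 promoters. TTNNGNAA, a loose form of the C/EBP site, was found for 3 members, Ms4a3, Fcnb and Fcna, and in 36.8% of promoters; in Ms4a3 it overlaps the Ets core. The Runx core TGTGGT was found for 1 member, Ctsg, and in 14.0% of promoters. These motifs were chosen after reading the promoters, and a match is a description of the sequence, not a binding site.

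In MLL-AF9 leukemia 4 of the 8 genes measured rose with Rictor deletion, Fcnb, Ms4a3, Elane and Ctsg, and 1 fell, Fcna. The shares over all genes tested were 3.79% called higher and 4.46% called lower. Every Rictor-deleted array was above every control for 5 of the 8 genes and below for 1, against 11.4% and 15.7% of all genes. Calls are genes whose limma p, adjusted over all genes tested, was under 0.05, which held for 8.26% of genes in either direction. The median log2 change was 0.32 over the 8 members and -0.01 over all genes. The members did not move as a block: changes ran from -1.10 for Fcna to 2.23 for Fcnb, and Mpo and Ctsc were not called. In MLL-NRIP3 leukemia 0 of the 8 were called, against 1.53% of all genes (0.78% higher and 0.748% lower), and 1 of 8 had an unadjusted p under 0.05 in limma, as did 17.7% of all genes. Without control 3, 2 members, Mpo and Fcnb, were called lower. The share of all genes called in that fit is not given here, and 1.53% does not apply to it. Leaving out 1 array gave 30 to 862 of the 12572 genes called in MLL-NRIP3 leukemia, so these 2 calls are not read as an excess. Fold changes were computed from log2(intensity + 16), which makes the changes of dim genes look smaller. Because bulk RNA was measured, fewer cells of a type and less RNA per cell cannot be told apart.

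**Figure D1:**
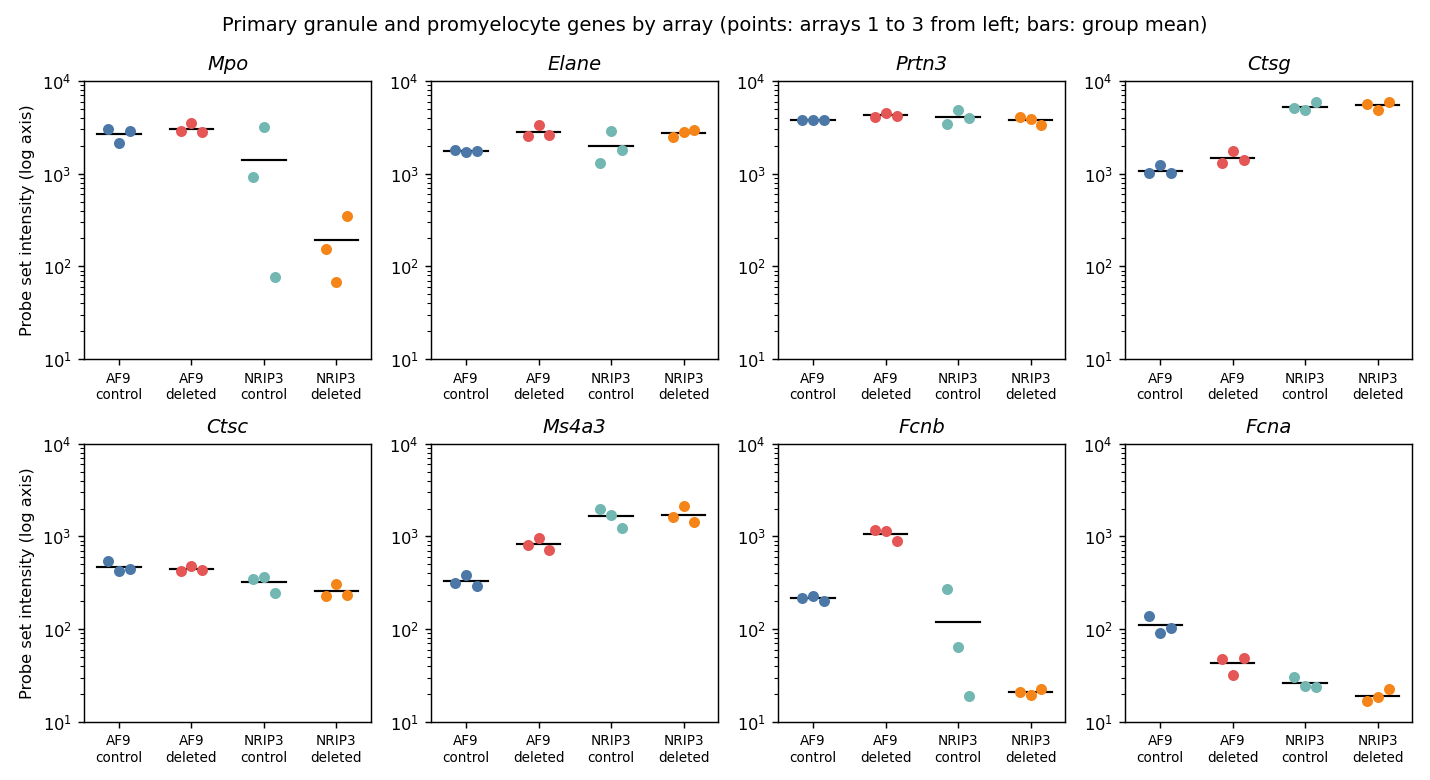
Intensity of the probe set used for each of the 8 genes (log axis) on every array, with a point per array, replicates 1 to 3 from left to right and a bar at the mean of each group of 3. In MLL-AF9 leukemia control and Rictor-deleted arrays do not overlap for Fcnb, Ms4a3, Elane, Prtn3, Ctsg and Fcna. The 3 MLL-NRIP3 controls are scattered over 41.3-fold for Mpo and 14.2-fold for Fcnb.

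Several arrays stood apart before any comparison. MLL-NRIP3 controls 1 and 2 had a mean log2 signal of 11.2 and 10.6 over 18 hybridization control probe sets, against 9.31 to 9.53 on the other MLL-NRIP3 arrays. Their ratio of 5′ to 3′ Gapdh signal, a measure of RNA integrity and labelling, was 0.562 and 0.738 against 0.881 to 0.965. In MLL-AF9 leukemia, control 3 had a Gapdh ratio of 0.901 against 1.01 to 1.09. Median intensity was 8.16 to 8.36 on the MLL-AF9 and 13.6 to 14.2 on the MLL-NRIP3 arrays, so the models look separately normalized and levels are not on 1 scale across them. Rictor itself was not called in either model: its brightest probe set went from 86.8 ± 4.80 to 87.5 ± 9.26 in MLL-AF9 and from 113 ± 26 to 104 ± 18.6 in MLL-NRIP3 cells (SD, n = 3 each), and the groups overlap in both (limma adjusted p = 0.98 and 0.84). The sources do not say whether the probe set lies in the deleted part, so its level checks nothing about the deletion. The pan-leukocyte gene Ptprc was bright on all 12 arrays, at 1448 to 2244, and Kit, a receptor of progenitors, was not called in either model (limma adjusted p = 0.056 and 0.14), though its responses differed (0.98, limma adjusted p = 0.027). The call of that difference was lost on leaving out 6 of the 12 arrays (at most 0.076) and with the hybridization control signal in the fit (0.081). Xist, transcribed from the inactive X of female cells, lay between 2348 and 2441 in control and between 34.3 and 208 in Rictor-deleted MLL-AF9 cells, and the Y-linked Eif2s3y between 3.43 and 7.81 and between 149 and 186. Sex and genotype therefore cannot be told apart in that model, while Xist was 2509 to 3558 on all MLL-NRIP3 arrays. No member lies on a sex chromosome.

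Fcnb encodes ficolin B, a lectin of myeloid cells that recognises sugars on microbes. In MLL-AF9 leukemia it read 217, 228 and 200 in controls 1 to 3 and 1177, 1139 and 899 in Rictor-deleted arrays 1 to 3. Every Rictor-deleted array was above every control, with no value between 228 and 899. The mean went from 215 ± 14.3 to 1072 ± 151 (SD, n = 3 each), a log2 change of 2.23 ± 0.09 (SE), or 4.68-fold, with an adjusted p of 2.8e-07 in limma. With the spread estimated from all 12 arrays, that p was 0.057. Within each array, Fcnb lay at the 90.9th to 91.8th percentile of probe sets in controls and at the 98.3rd to 98.8th in Rictor-deleted cells.

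In MLL-NRIP3 leukemia Fcnb read 271, 64.8 and 19.0 in controls 1 to 3, and 21.1, 19.2 and 22.5 in Rictor-deleted arrays. These stand at the 90.2nd, 73.5th and 55.8th percentile in controls and the 55.9th to 58.7th in Rictor-deleted arrays. Control 3 was as dim as the Rictor-deleted arrays, and only controls 1 and 2, the arrays with the low Gapdh ratios, stood above them. The log2 change was -1.34 ± 0.61 (SE, 95% interval -2.74 to 0.06, limma adjusted p = 0.30). Without control 3 it was -2.04 with an adjusted p of 0.033, and without controls 1 and 2 it was 0.08. The part of array quality in the Fcnb values of these controls was not tested; when the hybridization control signal entered the fit, the change was 0.34. The responses of the 2 leukemias differed by -3.57 ± 0.72 (SE, MLL-NRIP3 minus MLL-AF9, limma adjusted p = 0.014), and the difference kept an adjusted p under 0.05 with any 1 array left out, at most 0.045. It was 0.0502 with a robust prior.

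Ms4a3 encodes a membrane protein of the MS4A family that marks granulocyte-monocyte progenitors. In MLL-AF9 leukemia it read 314, 387 and 292 in controls and 808, 970 and 710 in Rictor-deleted arrays, with no overlap. The mean rose from 331 ± 49.7 to 829 ± 131 (SD, n = 3 each), a log2 change of 1.28 ± 0.11 (SE), or 2.43-fold (limma adjusted p = 5.3e-05). It remained called with the spread of all 12 arrays, at 0.0032, a setting in which 2 of the 8 members, Ms4a3 and Fcna, and 1.4% of all genes were called. In MLL-NRIP3 leukemia the values were 1998, 1722 and 1228 in controls and 1602, 2115 and 1427 in Rictor-deleted arrays, which overlap. Within arrays, Ms4a3 lay at the 93.8th to 95.3rd percentile in MLL-AF9 controls, the 97.8th to 98.5th after deletion and the 98.2nd to 99.2nd on all MLL-NRIP3 arrays. The change in MLL-NRIP3 leukemia was 0.06 ± 0.20 (SE, 95% interval -0.39 to 0.51, limma adjusted p = 0.89). The interval of that fit leaves out a rise of the size seen in MLL-AF9 leukemia. Other ways of processing, the omission of MLL-NRIP3 controls 1 and 2 among them, gave changes of -0.025 to 0.51, and their intervals are not given here. The responses differed by -1.22 ± 0.26 (SE, limma adjusted p = 0.021). That call ended without MLL-AF9 control 1 or 3, MLL-AF9 Rictor-deleted 1 or 2 or MLL-NRIP3 Rictor-deleted 1 (adjusted p 0.053 to 0.067), without both MLL-NRIP3 controls 1 and 2 (0.11) and with the hybridization control signal in the fit (0.082).

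Fcna encodes ficolin A, in mice a product mainly of macrophages of liver and spleen. It was the only member called lower in MLL-AF9 leukemia, where it read 137, 91.1 and 102 in controls and 47.4, 31.8 and 48.6 in Rictor-deleted arrays. All Rictor-deleted arrays were below all controls, as for 15.7% of all genes. The mean went from 110 ± 24.0 to 42.6 ± 9.37 (SD, n = 3 each), a log2 change of -1.10 ± 0.14 (SE), or 2.15-fold lower (limma adjusted p = 7.7e-04). In MLL-NRIP3 leukemia Fcna was dim, at 30.2, 24.0 and 23.5 in controls and 16.5, 18.3 and 22.7 in Rictor-deleted arrays. All 3 Rictor-deleted arrays were below all controls there, as for 12.8% of all genes (9.7% lay above), and no other member was free of overlap in that model. The change of -0.25 ± 0.11 (SE) was not called (limma adjusted p = 0.27, unadjusted p = 0.046). The responses differed by 0.85 ± 0.21 (SE, limma adjusted p = 0.044). That call held only without MLL-AF9 control 2, MLL-NRIP3 control 1 or MLL-NRIP3 control 3, and ended without any of the other 9 arrays (0.058 to 0.11). It also ended with the hybridization control signal in the fit (0.070), without both MLL-NRIP3 controls 1 and 2 (0.073), with a pseudocount of 1 (0.089) and with no filter on dim genes (0.067).

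Some markers of monocytes and macrophages, cells that make ficolin A, were lower beside Fcna in MLL-AF9 leukemia. Of 15 such genes tested, 8 were called lower and 0 higher in limma, with a median log2 change of -0.37. With the spread of all 12 arrays 5 were called lower, and Cd163 was not (limma adjusted p = 0.34). The 7 not called in the main fit included Csf1r, Cd14 and Ccr2, at -0.13, 0.04 and -0.30. The summed intensity of the list was 3982 to 4492 in controls and 3064 to 3555 in Rictor-deleted arrays. Among the 8 were Mrc1, the mannose receptor (-0.58 ± 0.06, SE), C1qc, a chain of complement C1q (-0.83 ± 0.11), Cd163, a scavenger receptor (-0.37), and Adgre1, the F4/80 antigen (-0.73 ± 0.11). Marco and Vsig4, markers of resident macrophages, were below the filter on dim genes. In MLL-NRIP3 leukemia 0 of the 15 were called, though 3 were called lower without control 3, and the sum was 6057, 4215 and 2184 in controls 1 to 3 and 2453 to 3112 in Rictor-deleted arrays. The part of macrophages in the Fcna values was not tested.

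**Figure D2:**
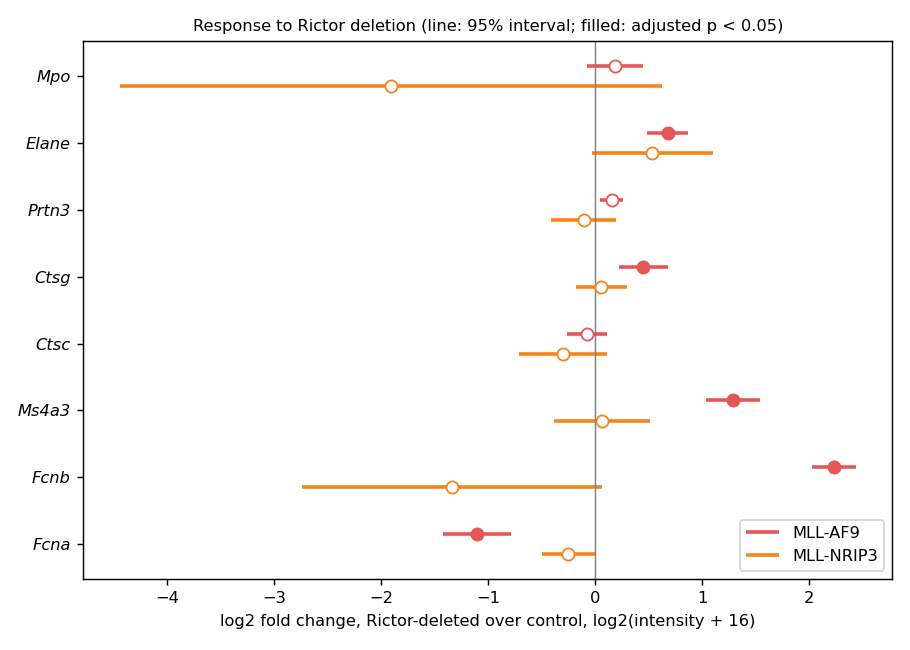
Log2 fold change of Rictor-deleted over control arrays (x axis) for each of the 8 genes in MLL-AF9 and MLL-NRIP3 leukemia, with 95% intervals from limma and filled points at an adjusted p under 0.05. The 5 filled points all belong to MLL-AF9 leukemia, and the intervals of Mpo and Fcnb in MLL-NRIP3 leukemia are the widest.

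The 3 serine proteases had log2 changes of 0.15 to 0.68 in MLL-AF9 leukemia. Elane encodes neutrophil elastase, which cleaves elastin and bacterial proteins. In MLL-AF9 leukemia it read 1822, 1703 and 1743 in controls and 2525, 3357 and 2631 in Rictor-deleted arrays, with no overlap. The mean rose from 1756 ± 60.1 to 2838 ± 453 (SD, n = 3 each), a log2 change of 0.68 ± 0.09 (SE), or 1.60-fold (limma adjusted p = 7.4e-04), and with the spread of all 12 arrays the adjusted p was 0.24. In MLL-NRIP3 leukemia it read 1289, 2911 and 1809 in controls and 2499, 2834 and 2927 in Rictor-deleted arrays. These overlap through control 2 alone, and the change of 0.53 ± 0.25 (SE, 95% interval -0.03 to 1.10) was not called (limma adjusted p = 0.31). The responses differed by -0.14 ± 0.30 (SE, limma adjusted p = 0.85), so a difference of Elane between the models was not shown.

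Prtn3 encodes proteinase 3 and lies next to Elane on chromosome 10. The MLL-AF9 controls gave 3829, 3826 and 3821, a spread smaller than that of 99.9% of genes, and 4076, 4550 and 4153 in Rictor-deleted arrays. All Rictor-deleted arrays were above all controls, as for 11.4% of genes. The mean went from 3826 ± 4.25 to 4260 ± 254 (SD, n = 3 each), and the change of 0.15 ± 0.05 (SE) was not called (limma adjusted p = 0.077; 0.046 with a robust prior). In MLL-NRIP3 leukemia Prtn3 read 3398, 4897 and 4033 in controls and 4088, 3874 and 3394 in Rictor-deleted arrays, which overlap (-0.11 ± 0.13, SE, 95% interval -0.41 to 0.20, limma adjusted p = 0.72). It lay between the 99.6th and 99.9th percentile of probe sets on every array of both models.

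Ctsg encodes cathepsin G, a chymotrypsin-like protease. In MLL-AF9 leukemia it read 1007, 1229 and 1008 in controls and 1314, 1755 and 1390 in Rictor-deleted arrays, with no overlap. The mean went from 1081 ± 128 to 1487 ± 236 (SD, n = 3 each), a log2 change of 0.45 ± 0.10 (SE), or 1.36-fold (limma adjusted p = 0.022). Of the 5 calls this was the only one to end on leaving out 1 array: it ended without control 1 (0.062), control 3 (0.0998) or Rictor-deleted 2 (0.070), with the spread of all 12 arrays (0.13) and when the hybridization control signal entered the fit (0.058). In MLL-NRIP3 leukemia Ctsg read 5063, 4811 and 5913 in controls and 5678, 4818 and 5905 in Rictor-deleted arrays. The groups overlap almost entirely, and the change was 0.06 ± 0.11 (SE, 95% interval -0.18 to 0.29, limma adjusted p = 0.82). Within arrays, Ctsg lay at the 98.6th to 99.3rd percentile of probe sets in MLL-AF9 and the 99.7th to 99.9th in MLL-NRIP3 leukemia.

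Ctsc encodes cathepsin C, the dipeptidase that trims the proforms of elastase, proteinase 3 and cathepsin G to their active forms. On its brightest probe set the MLL-AF9 controls gave 542, 427 and 444, and the Rictor-deleted arrays 426, 478 and 429, which overlap (-0.08 ± 0.09, SE, 95% interval -0.26 to 0.11, limma adjusted p = 0.68). In MLL-NRIP3 leukemia it read 349, 365 and 246 in controls and 230, 303 and 232 in Rictor-deleted arrays. These also overlap (-0.30 ± 0.18, SE, 95% interval -0.71 to 0.11, limma adjusted p = 0.42). The other 2 probe sets of Ctsc were below the filter on dim genes, at 3.85 to 5.93 and 5.08 to 10.3 over the 12 arrays, and give no second view of the gene. The activating protease was not called in either model, while 2 of its 3 substrates named here, Elane and Ctsg, rose in MLL-AF9 leukemia.

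Mpo encodes myeloperoxidase, the heme enzyme that makes hypochlorous acid and a classical marker of the myeloid lineage. In MLL-AF9 leukemia it read 3065, 2168 and 2911 in controls and 2858, 3538 and 2817 in Rictor-deleted arrays, which overlap. The means were 2715 ± 479 and 3071 ± 405 (SD, n = 3 each), and the change was 0.18 ± 0.12 (SE, 95% interval -0.08 to 0.45, limma adjusted p = 0.41).

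In MLL-NRIP3 leukemia Mpo read 914, 3198 and 77.4 in controls 1 to 3 and 154, 68.7 and 352 in Rictor-deleted arrays. The highest and lowest control differed 41.3-fold, a spread on the log2 scale (SD 2.59) larger than that of 99.98% of genes. Rictor-deleted arrays spanned 5.13-fold. Within arrays, Mpo lay at the 97.5th, 99.5th and 75.6th percentile on controls 1 to 3 and the 73.5th to 93.0th after deletion, against the 99.5th to 99.8th on all MLL-AF9 arrays. The change of -1.91 ± 1.11 (SE) had a 95% interval of -4.44 to 0.63 and was not called (limma adjusted p = 0.41), so neither a large fall nor a small rise can be told from these 6 arrays. Without control 3 the change was -3.31 (limma adjusted p = 0.024), without controls 1 and 2 it was 0.90, and with the hybridization control signal in the fit it was 0.26. Mpo was high on the 2 controls with low Gapdh ratios and low on control 3, whose ratio of 0.952 lay among those of the Rictor-deleted arrays; the part of array quality in this was not tested. The responses of the models differed by -2.09 ± 1.31 (SE, limma adjusted p = 0.43).

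**Figure D3:**
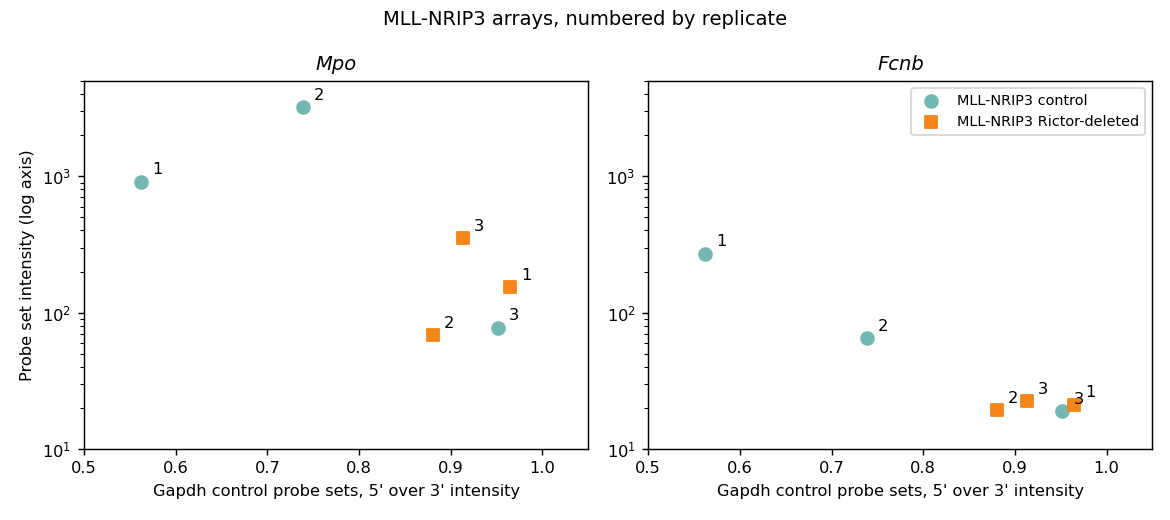
Intensity of Mpo (left) and Fcnb (right) on a log axis against the ratio of 5′ to 3′ Gapdh control signal on the 6 MLL-NRIP3 arrays, numbered by replicate. Controls 1 and 2, at ratios of 0.562 and 0.738, lie above the other arrays for both genes, and control 3 lies among the Rictor-deleted arrays.

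The spread of Mpo and Fcnb among the MLL-NRIP3 controls was not shared by every member. Ctsg spanned 1.23-fold, Fcna 1.29-fold, Prtn3 1.44-fold, Ctsc 1.48-fold, Ms4a3 1.63-fold and Elane 2.26-fold over the same 3 arrays. The order of the arrays differed too, since Mpo and Elane were highest on control 2, Fcnb, Fcna and Ms4a3 on control 1 and Ctsg on control 3. Later granule genes followed the order of Fcnb: their summed intensity was 30637, 17209 and 12868 on controls 1 to 3, and 7347 to 12179 in Rictor-deleted arrays.

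Of the 3 differences between the models that were called among the 8 members, 2 were lower in MLL-NRIP3 leukemia, Fcnb and Ms4a3, and 1 was higher, Fcna, where 2.37% and 1.92% of all genes were called, 4.29% in either direction. When each model's own spread was used for the difference, the adjusted p was 0.012 for Fcnb, 0.0063 for Ms4a3 and 0.0083 for Fcna. Mpo, Elane, Prtn3, Ctsg and Ctsc were not called, with differences of -2.09 to -0.14. Calls in 1 model and none in the other therefore do not by themselves show a difference for Elane or Ctsg (limma adjusted p = 0.85 and 0.24).

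The genes around these members gave a mixed picture. Of 19 other genes of primary granules and promyelocytes that were tested, 7 rose and 5 fell with Rictor deletion in MLL-AF9 leukemia, with a median log2 change of 0.02; without control 3 these counts were 5 and 4, and with the spread of all 12 arrays 2 and 0. Those that rose with the smallest p were Lyz1 and Lyz2, which encode lysozymes (0.67 ± 0.06 and 1.21 ± 0.11, SE), Clec5a, a myeloid lectin receptor (1.95 ± 0.19), and Igfbp4, a binding protein of insulin-like growth factors (1.12 ± 0.20). Hdc, the enzyme that makes histamine, fell (-0.27 ± 0.05), a call that ended without Rictor-deleted 3 (adjusted p = 0.063). Srgn, the proteoglycan core that binds granule proteases, was bright and not called (0.06 ± 0.04, limma adjusted p = 0.47). In MLL-NRIP3 leukemia 1 of the 19 rose, Hdc (1.32 ± 0.16, limma adjusted p = 0.010), and 1 fell, Mgst1, a glutathione transferase of membranes (-1.11 ± 0.15, limma adjusted p = 0.016). Without control 3, 1 rose and 4 fell. Without controls 1 and 2 neither Hdc nor Mgst1 was called (0.167 and 0.17), and the calls ended on leaving out 2 and 4 of the 6 arrays. Hdc and Mgst1 also differed between the models, by 1.59 and -1.41 (limma adjusted p = 3.6e-04 and 5.8e-04), and both differences remained called with any 1 array left out.

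Of 15 transcription factors and other regulators listed for promyelocyte genes, Id2 and Per3 among them, 2 rose, Cebpd and Id2, and 3 fell in MLL-AF9 leukemia. Without control 3 these counts were 1 and 1, and with the spread of all 12 arrays 1 and 0, where Id2 was not called (limma adjusted p = 0.38). Myb fell by 0.27 ± 0.05 on the log2 scale (limma adjusted p = 0.0094). Its means were 2598 ± 95.3 in control and 2152 ± 129 in Rictor-deleted arrays (SD, n = 3 each). The call of Myb ended with the spread of all arrays (limma adjusted p = 0.165). Of the members whose promoters carry the Myb core shown above, Elane was called higher and Prtn3 was not called. A link between Myb and either gene was not tested. Cebpd rose by 0.43 ± 0.08 (SE). Cebpa, Spi1 (PU.1) and Gfi1 were not called, at -0.09, -0.02 and 0.22. In MLL-NRIP3 leukemia Runx1 rose (0.76 ± 0.14, SE, limma adjusted p = 0.041), a call that ended on leaving out 5 of the 6 arrays, at most 0.18, and without controls 1 and 2 (0.246); without control 3, 1 rose and 2 fell. Spi1 was lower in all 3 Rictor-deleted arrays but not called (-0.58 ± 0.16, limma adjusted p = 0.13).

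Of 9 inhibitors of granule proteases tested, 4 rose and 2 fell in MLL-AF9 leukemia; without control 3 these counts were 3 and 2, and with the spread of all 12 arrays 3 and 0. Serpinb1a, an inhibitor of elastase, proteinase 3 and cathepsin G, rose by 0.50 ± 0.05 (SE, limma adjusted p = 2.0e-04), and the stefins Stfa2l1 and Stfa3, inhibitors of cysteine cathepsins, rose by 2.72 ± 0.12 and 2.54. Slpi, a secreted inhibitor of elastase and cathepsin G, fell (-0.31 ± 0.06). Of 7 genes of heme synthesis, which supplies the cofactor of Mpo, 0 were called in either model by limma. Of 5 genes of the NADPH oxidase tested, 2 rose in MLL-AF9 leukemia, Cybb and Ncf4; without control 3 this count was 1, and with the spread of all 12 arrays 0. Ncf4, a regulatory subunit of the oxidase, lost its call on leaving out 5 of the 6 arrays. Cybb, the catalytic subunit, rose by 0.75 ± 0.16 there (SE, limma adjusted p = 0.013; 0.053 without Rictor-deleted 1) and fell in MLL-NRIP3 leukemia (-1.99 ± 0.38, limma adjusted p = 0.047), a call that ended on leaving out 5 of the 6 arrays. Granzymes and mast cell proteases, which cathepsin C also activates, were mostly dim, and 0 of the 3 tested were called in either model, as were 0 of the 3 tested genes of the lectin pathway that ficolins feed.

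Genes of secondary and tertiary granules, which follow the primary granule genes in neutrophil maturation, were counted in the same way. In MLL-AF9 leukemia 18 of 19 tested rose and 0 fell, with a median log2 change of 1.34; with the spread of all 12 arrays 8 rose. Lcn2, which binds bacterial siderophores, rose by 2.30 ± 0.11 (SE), Cd177, a surface receptor that holds proteinase 3, by 2.88 ± 0.16, and Ltf, which encodes lactoferrin, by 3.20 ± 0.26. In MLL-NRIP3 leukemia 5 of the 19 fell and 0 rose, among them Ngp (-3.58 ± 0.61) and S100a8 (-2.34 ± 0.40), whose calls ended on leaving out 4 and 5 of the 6 arrays; without control 3, 9 were called lower and 1 higher, without controls 1 and 2, 2 were called lower, and with the hybridization control signal in the fit 0 were. The responses of 14 of the 19 were lower in MLL-NRIP3 than in MLL-AF9 leukemia, and of 15 without controls 1 and 2.

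**Figure D4:**
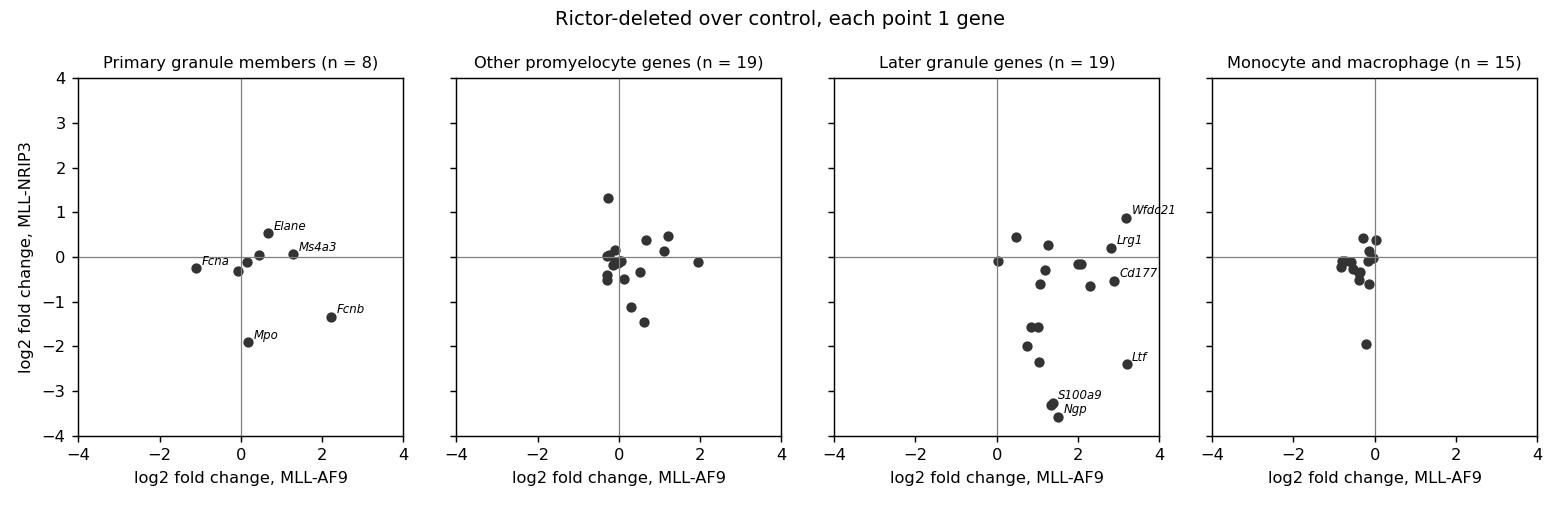
Log2 fold change with Rictor deletion in MLL-NRIP3 (y axis) against MLL-AF9 leukemia (x axis), 1 point per gene, for the 8 members, 19 other promyelocyte genes, 19 later granule genes and 15 monocyte and macrophage genes. Prtn3, Ctsg and Ctsc lie near the origin without labels, and all 19 later granule genes lie right of 0 with most of them below 0 on the y axis.

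Markers of other cell types that the sort could hold were counted beside the members. Eosinophil genes fell in MLL-AF9 leukemia, 3 of 3 tested, with Prg2, a major basic protein, at -1.62 ± 0.09 (SE). The summed intensity of the eosinophil list was 912 to 1153 in controls and 235 to 361 in Rictor-deleted arrays. Mast cell and basophil genes rose in 2 of 6 tested in MLL-NRIP3 leukemia, Hdc and Cpa3 (2.69 ± 0.51, a call lost on leaving out 4 of the 6 arrays), and in 0 without controls 1 and 2, with a summed intensity of 626 to 761 in controls and 1080 to 2671 in Rictor-deleted arrays. In MLL-AF9 leukemia 2 of the 6 fell, and 1 without control 3. Stem and progenitor genes fell in 5 of 13 tested in MLL-AF9 leukemia (3 without control 3, and 1 with the spread of all 12 arrays). In MLL-NRIP3 leukemia 1 of the 13 rose, Cd34, whose call was lost on leaving out 3 of the 6 arrays; 5 rose and 1 fell without control 3, 8 rose and 1 fell with the spread of all 12 arrays, and 0 were called without controls 1 and 2. Of 6 erythroid and megakaryocyte genes 1, Itga2b, was called in each model. Its call lower in MLL-AF9 leukemia (limma adjusted p = 0.034) was lost on leaving out any of the 6 arrays (0.057 to 0.14), and its call higher in MLL-NRIP3 leukemia (0.011) was lost without control 2 (0.058) and without controls 1 and 2 (0.13). Of 10 B and T lineage genes, 3 fell in MLL-AF9 leukemia (2 without control 3) and 1, Ighm, fell in MLL-NRIP3 leukemia (limma adjusted p = 0.033), a call lost on leaving out 5 of the 6 arrays (at most 0.12) and without controls 1 and 2 (0.13). The part of other cell types in the members' values was not tested.

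The chromosomal neighbours of the members were counted too. The tested genes nearest to each member, 2 on either side, came to 28 genes that are not members. In MLL-AF9 leukemia 1 was called higher, Dynll2 near Mpo (0.36, limma adjusted p = 0.015; 0.074 without Rictor-deleted 3), and 0 lower, where 3.79% and 4.46% of all genes were called, so the count is near that of genes at large. The neighbours of Fcnb, Ms4a3, Elane, Ctsg and Fcna that are not members were not called there. In MLL-NRIP3 leukemia 2 of the 28 were called higher, against 0.78% of all genes, beside members that were not: Ms4a6d, 2 coding genes from Ms4a3, went from 9.63 ± 2.44 to 97.8 ± 49.7 (2.07 ± 0.26, SE, limma adjusted p = 0.012), and Rab38, the coding gene next to Ctsc, from 17.2 ± 8.17 to 383 ± 119 (3.58 ± 0.26, limma adjusted p = 8.5e-04; SD, n = 3 each). Ms4a6d lost its call without control 2 (0.063) and without controls 1 and 2 (0.19), whereas Rab38 remained called with any 1 array left out and without both (0.027). Both responses differed between the models (limma adjusted p = 0.0018 and 0.0014), while those of Ctsc did not pass the test. Another neighbour, Olfm1, the coding gene next to Fcnb, also differed, by 1.67 ± 0.42 (SE, limma adjusted p = 0.044), opposite in sign to the difference of Fcnb; that call was lost on leaving out 9 of the 12 arrays (at most 0.11). Mcpt8, a basophil protease gene next to Ctsg on chromosome 14, was not called in either model.

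Over the 12 arrays, with each model centred on its own mean, the gene most like Fcnb was Ltf (Pearson's r = 0.98), followed by Ffar2 and Map3k9 (0.973 and 0.969). For Ms4a3 it was 1810055G02Rik (0.949), for Fcna Il17rb (0.956), for Mpo Fam243 (0.945), for Ctsc Cdkn2aip (0.925), for Prtn3 Slc22a5 (0.905) with Srgn second (0.903), for Elane Ccsap (0.90) and for Ctsg Cyp26a1 (0.887). No member was among the 3 genes most like another member. These are descriptions over arrays that share genotype and array quality, picked as the highest among the 12572 genes tested, and carry no p.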

How the data were processed

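RNA of sorted mouse leukemia cells was measured on 12 Affymetrix arrays, from 7 µg of total RNA labelled with biotin, per the labels' protocols. The authors deposited linear intensities, 1 per probe set and array, for 45101 probe sets. Probe summary, background correction and normalization: not given in the sources used here. Groups were taken from the sample titles. By the platform annotation, which can be old, 34958 probe sets had 1 gene symbol, 932 several and 9211 none, and only the first were named.

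The brightest probe set stood for its gene, and those whose mean fell below the 40th percentile (7.70) were dropped. Values were log2(intensity + 16). Each model's 6 arrays were fitted alone, and the difference of the responses on all 12, by lmFit and eBayes with a trend (limma 3.58.1, R 4.3.3, 2-sided). Adjusted p-values are Benjamini-Hochberg values over all genes tested. The fits were tested on simulated data, in which false calls of the difference exceeded the nominal share. No exact permutation test was run, since 3 arrays against 3 allow no p under 0.1. The number of arrays limits the precision.

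The members, the 15 gene lists, the alternatives and the tests were chosen with earlier results of these data known. Named are the members, Rictor, Kit, Ptprc, Xist and Eif2s3y as checks, per list up to 4 called genes with the smallest p and up to 3 others, the 2 tested neighbours on either side of a member, and the 3 genes most correlated with it. Cybb, Cd34, Itga2b and Ighm were also named after their values were seen. Several genes are shared between lists. Cybb is also a later granule gene, Hdc a mast cell gene, Hp both a promyelocyte and a later granule gene, and Alas1 both a promyelocyte and a heme gene. Mcpt8, Tpsb2, Cma1 and Mcpt4 are in the lists of cathepsin C substrates and of mast cells, and Epx in those of peroxidases and of eosinophils. Promoters and neighbours come from RefSeq tables of GRCm38.p6. Python 3.11.15, pandas 2.3.3 and matplotlib 3.10.9 made tables and figures. The list counts under left-out arrays were added after the data were seen.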

Additional observations from a re-analysis of the deposited data

Results flagged for a closer look

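The response to Rictor deletion differed between the leukemias for 3 members by the test of the difference itself. For Fcnb the difference was -3.57 on the log2 scale (MLL-NRIP3 minus MLL-AF9, limma adjusted p = 0.014), for Ms4a3 -1.22 (0.021) and for Fcna 0.85 (0.044). With 1 array left out, the call of Fcnb held each time (at most 0.045). That of Ms4a3 was lost for 5 of the 12 arrays (at most 0.067) and that of Fcna for 9 of the 12 (at most 0.11). With the hybridization control signal in the fit, the limma adjusted p was 0.013 for Fcnb, 0.082 for Ms4a3 and 0.070 for Fcna. In simulated data, false calls of such a difference exceeded the nominal share. Sex and genotype cannot be told apart in the MLL-AF9 arrays, so these differences are not tied to Rictor alone.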

How the results depend on the processing

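With 3 arrays per group, the calls in MLL-AF9 leukemia rest on its small spread: with the spread of all 12 arrays 176 genes and 2 members were called there, and 1733 genes in MLL-NRIP3 leukemia. Leaving out 1 array gave 584 to 964 genes and 4 to 5 members called in MLL-AF9, 30 to 862 genes and 0 to 2 members in MLL-NRIP3, and 309 to 1405 genes and 1 to 4 members for the difference. Array weights gave 3010 genes and 4 members in MLL-NRIP3 (1657 genes higher, against 98 of 192) and 2529 genes for the difference (1491 higher, against 241 of 539). The mean of all probe sets gave 82 genes in MLL-NRIP3. The hybridization control covariate gave 30 genes there and 1 member for the difference, and the omission of MLL-NRIP3 controls 1 and 2 gave 27 genes and 1 member.

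Signs turned in these cases. In MLL-NRIP3, Ms4a3 was -0.025 with array weights. With the covariate Mpo was 0.26, Ctsg -0.11, Fcnb 0.34 and Ctsc 0.033, and without controls 1 and 2 they were 0.90, -0.12, 0.075 and 0.037. The difference of Ctsc was 0.011 with the covariate, and without controls 1 and 2 those of Mpo and Ctsc were 0.72 and 0.11. With 1 array left out, Ctsc in MLL-AF9 ranged from -0.14 to 0.026, and in MLL-NRIP3 Prtn3 from -0.24 to 0.027, Ctsg from -0.0066 to 0.14 and Ms4a3 from -0.13 to 0.22, and the difference of Elane from -0.42 to 0.16. None of the turned values was called, and the cause was not tested beyond the arrays left out. The replicate block gave 962, 163 and 457 genes called in MLL-AF9, MLL-NRIP3 and the difference, and the same number of members. After each group's mean was subtracted, same-numbered arrays correlated at -0.098 to 0.025 in MLL-AF9 and -0.135 to 0.056 in MLL-NRIP3. Not every array correlated best with its own number. With 3 arrays per group, these values cannot settle whether the numbers pair the arrays. No member changed sign, in any of the 3 comparisons, under quantile normalization, median centring, the other pseudocounts or the other filters.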
